A study of Mus musculus with 8 samples.

Results

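The elastic fibre and microfibril genes Fbn1, Eln, Fbln1, Fbln2, Fbln5, Mfap2, Mfap4, Mfap5, Efemp1 and Lox were followed through 12 clusters of differentiating white fat precursor cells. They were chosen by name, as structural parts of elastic fibres and the enzyme that cross-links them, from a table in which 3903 gene symbols have 13337 entries. All 10 genes had at least 1 entry, and together they had 60. An entry is 1 gene in 1 cluster, and the value used from it is detection, the percent of cells with at least 1 molecule of the gene counted, given once for the cluster and once for all cells outside it.

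The cells were preadipocytes of inguinal white fat from C57BL/6 mice aged 8 to 12 weeks, either wild type (WT) or carrying Hmgn1-/- and Hmgn2-/- (DKO), cultured on collagen-coated plates. They were profiled as preadipocytes at day 0, or as differentiating adipocytes at day 6 of a protocol with insulin, dexamethasone, IBMX, T3 and rosiglitazone, followed by insulin and T3 alone. Each genotype and day had 2 samples, 8 in all, and browning, the shift of white fat cells towards heat production, was the process under study. The table pools the cells of all 8 samples, so no value below has a replicate, an SD or a test, and neither the genotypes nor the days could be compared. The loss of Hmgn1 and Hmgn2, which encode nucleosome-binding proteins, could not be checked by sample either, and whether animals were pooled for a sample is not given in the sources used here. The number of cells and the sequencing depth behind each percent are unknown, and no counting interval is given.

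Elastic fibres let a tissue stretch and recoil. Their core is elastin, the product of Eln, laid down on a scaffold of microfibrils built from fibrillin-1, the product of Fbn1. Microfibril-associated proteins encoded by Mfap2 and Mfap5 bind fibrillin, Mfap4 encodes a secreted glycoprotein of the fibre surface, the fibulins help to place elastin on the microfibril, and lysyl oxidase, the product of Lox, starts the cross-links that make elastin and collagen insoluble. Microfibrils also hold latent TGF-beta in the matrix. Preadipocytes are fibroblast-like cells that make such matrix, and they lose much of that character as they fill with lipid.

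Promoter windows were held for 6 of the 10 genes in RefSeq (GRCm38.p6). The 250 bases before the start site are shown for Fbln1 and Fbln5, related fibulins with different highest clusters among those listed, because these were the windows free of annotated exons. Capitals mark the GC box, GGGCGG on either strand. The Fbln5 window is chr12:101819120-101819369 and the Fbln1 window is chr15:85205699-85205948, read on the minus and the plus strand respectively.
Fbln5: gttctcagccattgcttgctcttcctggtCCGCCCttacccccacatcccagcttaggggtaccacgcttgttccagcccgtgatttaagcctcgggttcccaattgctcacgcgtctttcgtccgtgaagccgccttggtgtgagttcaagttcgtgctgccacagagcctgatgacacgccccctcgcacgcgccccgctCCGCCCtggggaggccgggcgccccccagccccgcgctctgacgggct
Fbln1: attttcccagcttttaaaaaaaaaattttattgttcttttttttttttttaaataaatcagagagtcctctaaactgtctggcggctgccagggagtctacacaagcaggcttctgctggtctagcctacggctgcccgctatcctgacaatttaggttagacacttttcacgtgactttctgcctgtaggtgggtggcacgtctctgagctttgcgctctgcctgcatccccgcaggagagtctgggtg
The Fbln5 window held a GC box starting 221 and 48 bases before the start site, and the Fbln1 window held none. A second Fbln1 window, for a start site further downstream, had a GC box 11 bases before its start. A second Fbln5 window, also for a start site further downstream, held no GC box. Over all windows of the 6 genes, 6 of 9 held a GC box, against 32.7% of 32851 mouse promoter windows of the same length. The AP-1 motif TGANTCA was found in 1 of the 9 windows, that of Efemp1, against 6.7% of all windows, the TEAD motif GGAATG in 1, of Mfap2, against 12.6%, and TATAAA in 0 against 12.4%. Both strands were searched, and windows of the same gene can overlap, as those of Fbln1 do. A match is a description of the letters and not evidence of binding, and the motifs were chosen after the detection values had been seen.

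Detection of the members over all cells spanned a wide range, from nearly every cell to few cells. It was 94.0% for Fbln2, 93.8% for Lox, 82.1% for Fbn1 and 72.6% for Mfap5. Fbln1 followed with 49.4%, Mfap2 with 42.5% and Mfap4 with 41.3%, and the rarest were Fbln5 with 26.9%, Efemp1, which encodes fibulin-3, with 22.5%, and Eln itself with 10.6%. The values have no spread over samples, so the order of neighbours such as Fbln2 and Lox, or Mfap2 and Mfap4, cannot be judged. Transcripts of fibrillin-1 and of its partner Mfap5 were thus counted in most cells of the culture, and those of elastin in few. For a given member, the value came out the same within 0.082 percentage points from each of its clusters.

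All 10 genes are protein-coding in the GENCODE vM21 annotation of GRCm38 (mm10). Fbn1 lies on chromosome 2 (125300594 to 125507993, minus strand), Eln on chromosome 5 (134702593 to 134747323, minus strand) and Lox on chromosome 18 (52516067 to 52529867, minus strand). The microfibril-associated genes Mfap2, Mfap4 and Mfap5 lie on chromosome 4 (141010418 to 141015984), chromosome 11 (61485431 to 61488900) and chromosome 6 (122505845 to 122529290), all on the plus strand. Exons of Fbn1, Eln, Mfap4 and Lox overlap those of a gene on the opposite strand, which for Mfap4 is Mapk7, and whether the counting used strand is not given in the sources used here.

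**Figure D1:**
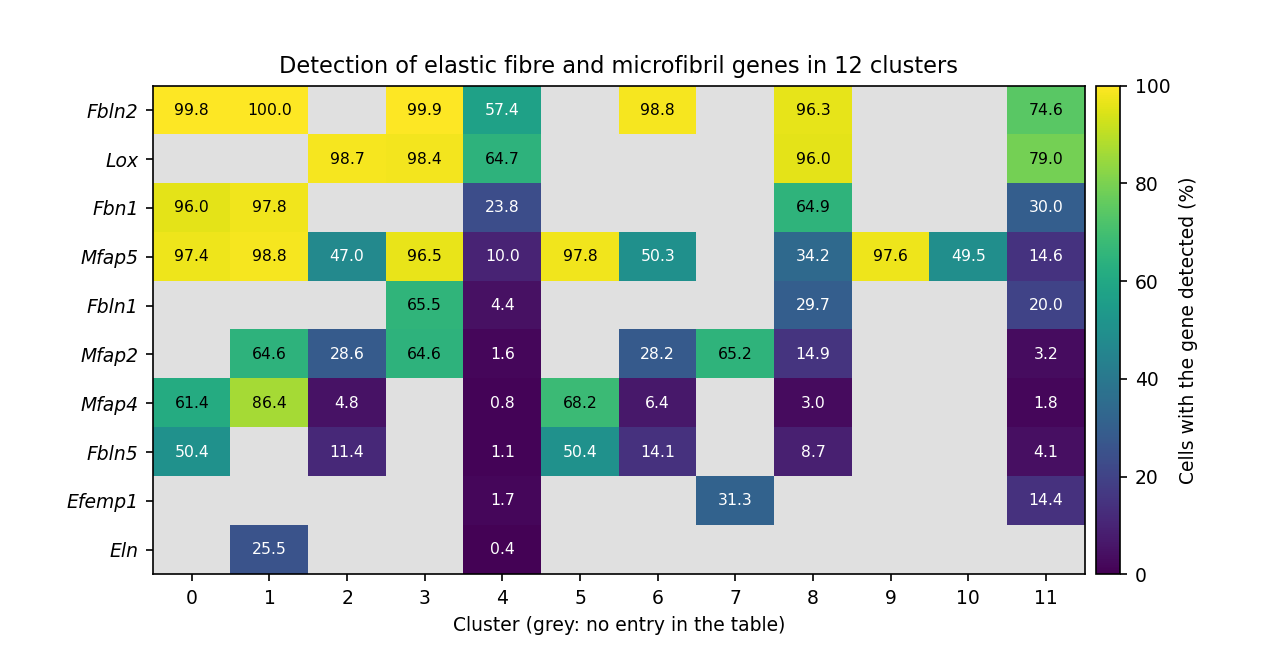
Each cell of the grid gives the percent of a cluster's cells in which the gene (row, ordered by detection over all cells) was detected, for clusters 0 to 11 (columns), and grey marks a gene with no entry for that cluster. Mfap5 was at 96.5% to 98.8% in clusters 0, 1, 3, 5 and 9 and at 10% to 50.3% in clusters 2, 4, 6, 8, 10 and 11.

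Mfap5, which encodes a fibrillin-binding microfibril protein, had the most entries, 11, and parted the clusters into a high and a low set. In the high set its detection, as the authors' pooled value, ran to 97.4% (cluster 0), 98.8% (cluster 1), 96.5% (cluster 3), 97.8% (cluster 5) and 97.6% (cluster 9). In the low set it reached only 50.3% (cluster 6), 49.5% (cluster 10), 47.0% (cluster 2), 34.2% (cluster 8), 14.6% (cluster 11) and 10% (cluster 4). The sets were drawn from these same values, so their not overlapping is no result. Their nearest values were 96.5% in cluster 3 and 50.3% in cluster 6. The one cluster without an entry, cluster 7, could be solved from the detection over all cells and came out at 91.0% (90.4% to 91.6% over the entries used), which is closer to the high set.

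Mfap4 had the largest fold between its highest and lowest listed detection among the members. Cluster 1 had 86.4% Mfap4-positive cells where the remaining cells had 33.9%, and clusters 5 and 0 had 68.2% and 61.4%. Clusters 2, 6, 8, 11 and 4 had 4.8%, 6.4%, 3.0%, 1.8% and 0.8%. The highest value was thus 108.0-fold the lowest, that of cluster 4, a cluster in which most genes were detected in few cells. In cluster 8, Mfap4 was found 14.6-fold less often than in the cells outside it. The difference of 52.5 percentage points in cluster 1 was the largest in the higher direction among the 60 entries.

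Mfap2 encodes the other fibrillin-binding microfibril protein and had 8 entries. It was found in 65.2% (cluster 7), 64.6% (cluster 1) and 64.6% (cluster 3) of cells, values too close to order. The low values were 28.6% (cluster 2), 28.2% (cluster 6), 14.9% (cluster 8), 3.2% (cluster 11) and 1.6% (cluster 4). Mfap4 was lower in these clusters too, and in clusters 2 and 6 it was found in far fewer cells than Mfap2.

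Fbn1, the microfibril scaffold itself, reached 97.8% of cluster 1 cells and 96.0% of cluster 0 cells, where the remaining cells had 79.5% and 79.8%. It was low in cluster 8 (64.9%, with 83.2% outside), cluster 11 (30.0%, with 82.9% outside) and cluster 4 (23.8%, with 88.3% outside). Cluster 11 thus lacked a count of Fbn1 in 70.0% of its cells, compared with 17.1% of the others. Fbn1 had no entry in clusters 2 and 6, where Mfap2, Mfap4 and Mfap5 were all lower.

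Elastin shared at most 2 listed clusters with any fibulin, so whether they followed 1 pattern could not be judged. Eln had 2 entries. Cluster 1 had 25.5% Eln-positive cells where the remaining cells had 8.1%, and cluster 4 had 0.4% where they had 11.7%. Over the 10 clusters without an entry, which held 76.2% of the cells, its mean detection was 9.1%. Cluster 1 was the one cluster listed with more Eln-positive cells. Mfap4, Mfap5 and Fbn1 had their highest listed detection there too. Fbn1 was listed in only 5 clusters, and Mfap5 at 98.8% was too close to 97.8%, 97.6% and 97.4% in clusters 5, 9 and 0 to order.

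Fbln5, which encodes a fibulin that binds elastin and cell-surface integrins, was at 50.4% in clusters 0 and 5, against 23.0% and 24.6% of the cells outside. Its low values were 14.1% (cluster 6), 11.4% (cluster 2), 8.7% (cluster 8), 4.1% (cluster 11) and 1.1% (cluster 4). It had no entry in cluster 1. Among its 4 entries, Fbln1 was highest in cluster 3, at 65.5% against 47.5% outside, and lower in cluster 8 (29.7%), cluster 11 (20%) and cluster 4 (4.4%). Fbln1 had no entry in clusters 0 and 5, and Fbln5 none in cluster 3, so neither can be compared where the other was higher.

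Fbln2 was close to saturation, so its contrasts lay in the cells that lacked it. Cells without a count made up 0.0% of cluster 1, 0.1% of cluster 3 and 0.2% of cluster 0, compared with 6.7% to 7.0% outside each of them. Unlike Fbln5, Mfap2, Mfap4 and Mfap5, Fbln2 was listed with slightly more positive cells in cluster 6 (98.8% against 93.6%) and cluster 8 (96.3% against 93.8%). The cells outside include those of cluster 4, where Fbln2 was at 57.4%. Cluster 8 lay below clusters 0, 1, 3 and 6, so no contrast with the other members is read in cluster 8. Fbln2 was lower in cluster 11, at 74.6% against 94.3%, and in cluster 4, at 57.4% against 97.9%. Efemp1 had 3 entries, with 31.3% in cluster 7 against 21.8% outside, 14.4% in cluster 11 against 22.6%, and 1.7% in cluster 4 against 24.7%.

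Lox, the cross-linking enzyme, was near saturation as well. Clusters 2, 3 and 8 had 98.7%, 98.4% and 96.0% Lox-positive cells, against 93.1%, 93.2% and 93.6% outside. The cells outside include those of cluster 4. Cluster 8 lay below clusters 2 and 3 and below the mean of the clusters without an entry (96.7%), so nothing is read from cluster 8. Cluster 11 had 79.0% against 94.0%, and cluster 4 had 64.7% against 96.8%. Cluster 2 was thus listed with more Lox-positive cells and with fewer cells positive for Fbln5, Mfap2, Mfap4 and Mfap5. The share of cells without a count was 1.3% inside cluster 2 and 6.9% outside.

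**Figure D2:**
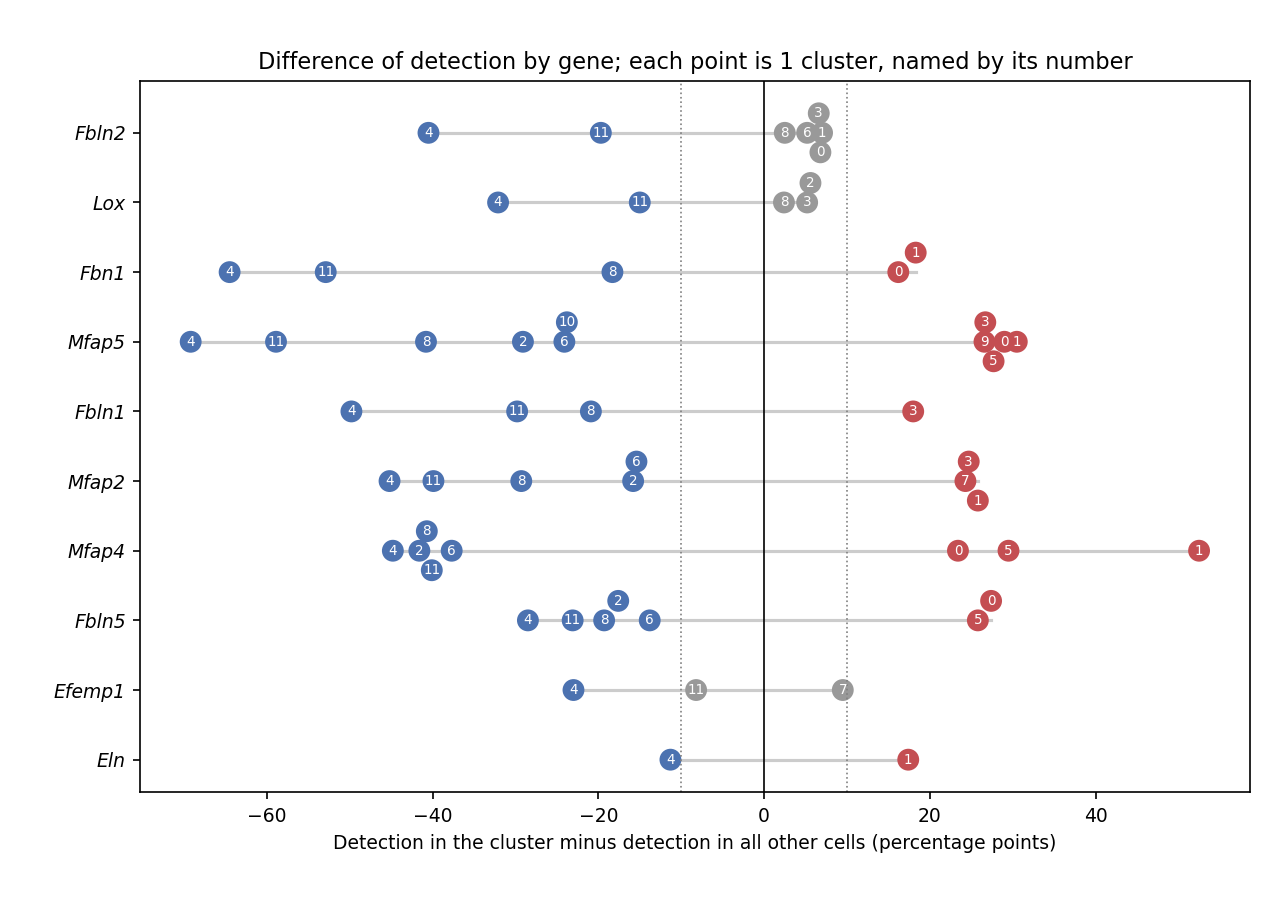
Each point is 1 cluster, named by its number, at the detection in that cluster minus the detection in all other cells (x axis, percentage points) for the gene named on the y axis; red points are at least 10 points higher, blue at least 10 points lower, grey between, and points are shifted up or down only to keep them apart. Mfap4 in cluster 1 (52.5) stands farthest to the right and Mfap5 in cluster 4 (-69.2) farthest to the left.

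To count members by cluster, a difference of at least 10 percentage points from all other cells was taken as higher or lower. By this rule 17 of the 60 entries were higher, 33 lower and 10 between, compared with 40.0% higher and 37.4% lower among all 13333 entries whose symbol stood once per cluster. Members were higher in clusters 0, 1, 3, 5, 7 and 9 and lower in clusters 2, 4, 6, 8, 10 and 11, and at this threshold 0 clusters held members of both kinds. At 5 percentage points, clusters 2 and 6 each held 1 member higher beside 4 lower, and relative to the cluster's median entry, clusters 0 and 4 held both kinds. Without clusters 4 and 10, in which almost every gene was detected in fewer cells, 17 of 49 entries were higher (34.7%) and 22 lower (44.9%), against 50.4% higher and 22.4% lower among all entries of the remaining clusters. An entry exists only where the authors' comparison passed its minimums, so members without one are in neither count.

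In cluster 11, 8 of the 9 listed members were lower, against 28.7% of that cluster's entries, with a median difference of -29.8 percentage points where the median of all its entries was 6.6. In cluster 6, 4 of 5 were lower against a background of 14.9%, and the medians were -15.4 and 10.7. Clusters 2 and 8 had 4 of 5 and 6 of 8 members lower, against 34.5% and 45.6%. The member shares in these 4 clusters stood above the background, by the most in clusters 6 and 11. Those not lower were Efemp1 in cluster 11 (-8.2), Fbln2 in cluster 6 (5.2), Lox in cluster 2 (5.6) and Fbln2 and Lox in cluster 8 (2.5 and 2.4).

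On the higher side the members stood nearer to the background. Of the listed members, 4 of 5 were higher in cluster 0 against 66.0% of all entries, 5 of 6 in cluster 1 against 58.8%, and 3 of 5 in cluster 3 against 48.7%. All 3 listed in cluster 5 were higher against 72.1%, 1 of 2 in cluster 7 against 59.7%, and 1 of 1 in cluster 9 against 76.9%. With so few members listed, nothing is read from these shares.

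**Figure D3:**
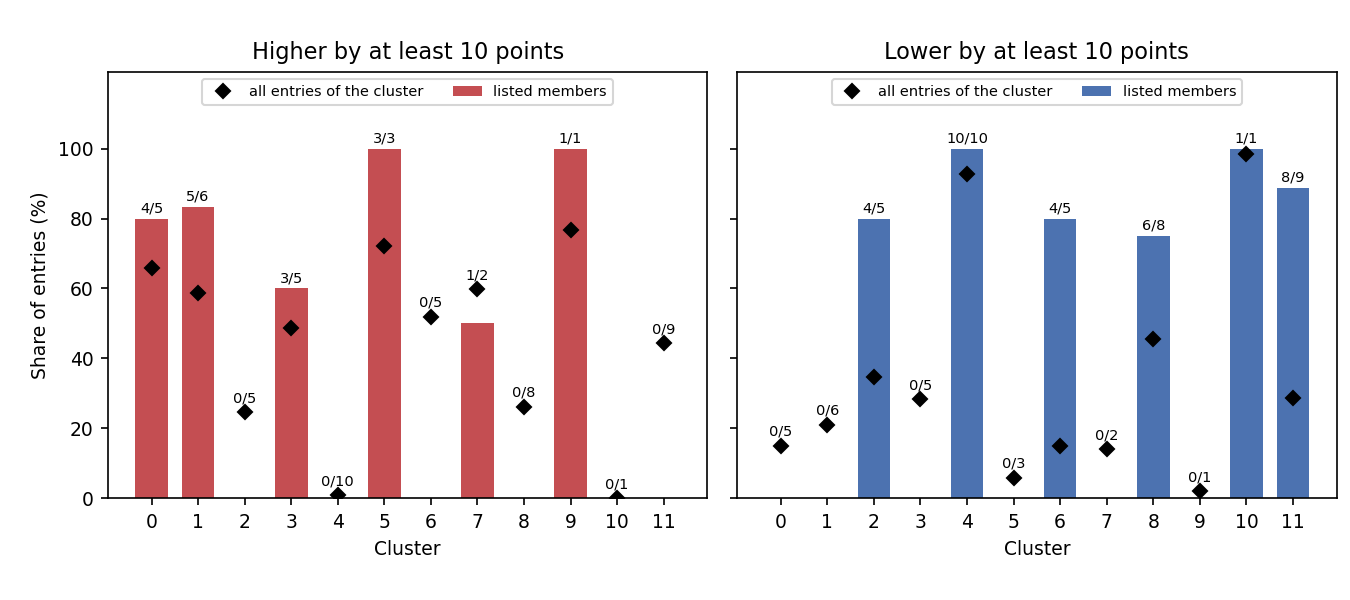
Bars give the percent of the listed members that were at least 10 percentage points higher (left) or lower (right) in each cluster (x axis), with the counts printed above the bar or the diamond, and black diamonds give the same percent over all entries of the cluster. The bars of clusters 6 (4 of 5) and 11 (8 of 9) exceed their diamonds, at 14.9% and 28.7%, by the most among the lower ones.

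Cluster 4 had all 10 members lower, from -11.3 points for Eln to -69.2 for Mfap5, and each of the 10 had its lowest listed detection there. However, 92.8% of the entries of cluster 4 were lower, and the median entry was detected in 10.8% of its cells against 63.0% elsewhere. In cluster 10, Mfap5 was the 1 member listed, at -23.8 points, where 98.5% of the entries were lower. Set against the median difference of each cluster, 2 members, Fbn1 and Mfap5, were still at least 10 points lower in cluster 4. Besides them, only Fbln2 and Lox were detected in enough cells outside cluster 4 to be called lower in this way. Lox and Fbln2 lay 15.1 and 6.7 points above the median of cluster 4. Mfap5 in cluster 10 lay 24.6 points above the median of that cluster. Eln, Fbln5, Efemp1, Mfap2 and Mfap4 were detected in too few cells elsewhere to fall as far as the median of cluster 4. Nothing is read from their lying above it. Fbln1 could reach that median but not 10 points below it. Detection of Eln, Fbln5 and Efemp1 was 29.2-fold, 26.9-fold and 14.5-fold lower in cluster 4 than outside. The low detection of the members in clusters 4 and 10 stood beside low detection of nearly all listed genes, and the part of this in the result was not tested.

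The cycling clusters differed among themselves. All 6 proliferation markers (Mki67, Top2a, Ube2c, Cenpf, Pclaf and Hist1h1b) were higher by at least 10 points in clusters 5, 6 and 9, with median differences of 62.4, 69.5 and 67.4. Mfap5 was at 97.8% and 97.6% in clusters 5 and 9 but at 50.3% in cluster 6, Mfap4 at 68.2% in cluster 5 and 6.4% in cluster 6, and Fbln5 at 50.4% and 14.1%. The adipocyte list (Fabp4, Scd1, Plin1, Adipoq, Lpl, Pparg, Cd36, Plin4, Lipe and Cidec) had 4 of 4 listed genes higher in cluster 6, and 0 higher in clusters 5 and 9, where 6 of 8 and 2 of 4 were lower. The lower members in cluster 6 thus stood beside higher adipocyte genes, where 735 of 1416 entries were higher. In clusters 5 and 9 only 3 members and 1 member were listed, and 72.1% and 76.9% of all entries were higher. No contrast of the members with the adipocyte genes is read there.

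The marker lists described the other clusters as follows. Of the adipocyte genes listed, 9 of 10 were higher in cluster 11 (median difference 72.4), 6 of 7 in cluster 8, 4 of 4 in cluster 2, 6 of 10 in cluster 4 and 1 of 2 in cluster 7. Among all entries, 1102 of 2485 were higher in cluster 11, 295 of 1126 in cluster 8, 279 of 1133 in cluster 2, 17 of 2072 in cluster 4 and 59.7% in cluster 7. In clusters 0, 1, 3 and 10 they were lower for 6 of 7, 7 of 8, 6 of 7 and 7 of 7 adipocyte genes, and 0 were higher. All entries were lower for 104 of 694, 153 of 729 and 121 of 427 in clusters 0, 1 and 3, and for 98.5% in cluster 10. In the preadipocyte list (Mmp3, F3, Itgb1, Pdgfra, Cd34, Ly6a, Dpp4 and Pi16), 5 genes had an entry. Of those listed, 3 of 3 were higher in cluster 1 against 58.8% of all entries, and 2 of 3 in cluster 0 against 66.0%. In clusters 3 and 7, 2 of 2 were higher, against 48.7% and 59.7%. The preadipocyte list had 1 of 3 higher in cluster 2, against 279 of 1133 entries, and 1 of 3 in cluster 6, against 735 of 1416. Lower were 1 of 3 in cluster 2 and 2 of 3 in cluster 6, against 34.5% and 14.9%. In clusters 5 and 9, 1 of 2 was higher, against 72.1% and 76.9%. In clusters 4, 8, 10 and 11, 5 of 5, 2 of 4, 1 of 1 and 4 of 5 were lower, against 92.8%, 45.6%, 98.5% and 28.7%. With so few genes listed, these counts only describe the clusters. The differentiating markers Col5a3 and Serpina3n were both higher in clusters 2, 6 and 8. Of the thermogenic list, Ppargc1a, Elovl3 and Cox7a1 were all higher in cluster 11, and Ucp1 and Cidea had no entry. The immune, endothelial and glial lists had 0 genes with an entry, and the study had removed such cells.

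What the clusters without an entry held could be given only as a mean. Over the 7 clusters without an Fbn1 entry (54.4% of the cells) mean detection was 88.0%, and over the 8 without Fbln1 (72.5% of the cells) it was 55.2%. For Mfap4 it was 49.6% over clusters 3, 7, 9 and 10, for Mfap2 48.6% over clusters 0, 5, 9 and 10, and for Fbln5 30.0% over clusters 1, 3, 7, 9 and 10. Each of these means lay above the gene's detection over all cells. The means were 96.7% for Fbln2, 96.7% for Lox and 24.3% for Efemp1.

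The wider elastic fibre list held 34 further genes, of which 18 had an entry. Ltbp2, a latent TGF-beta binding protein family member found on microfibrils, was detected most often in clusters 5 and 9 (61.2% each), 1 (55.4%) and 0 (51.9%). Its detection was 12.6% (cluster 6), 6.6% (cluster 2) and 2.7% (clusters 8 and 11). These are the clusters in which Mfap4 and Mfap5 were lower. Loxl3, of the lysyl oxidase family, was at 68.0%, 60.3% and 51.6% in clusters 9, 5 and 0, and at 18.1%, 6.6% and 1.4% in clusters 6, 8 and 11. Ctsk, a protease that can cut elastin, was at 88.5% and 86.6% in clusters 3 and 1, and at 11.5% in cluster 11.

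Other genes of the wider list had their highest detection in clusters 2, 6 or 8. Vcan, the proteoglycan versican that binds fibrillin, was at 99.2%, 97.3%, 96.3% and 81.1% in clusters 6, 2, 8 and 11, and at 52.5% and 52.9% in clusters 1 and 3. Emilin2, a glycoprotein of the elastin interface, was at 78.6%, 72.5% and 64.1% in clusters 6, 2 and 8, but at 29.7% in cluster 11. Plod1, a collagen lysyl hydroxylase, was at 75.5% and 72.7% in clusters 8 and 2, and Loxl2, another lysyl oxidase relative, at 86.9% in cluster 2 and 45.3% in cluster 11. Clusters 2, 6, 8 and 11, with fewer Mfap4- and Mfap5-positive cells, were thus those listed with at least 10 points more Vcan-positive cells. Vcan had no entry in cluster 4 and was at 6.9% in cluster 10.

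Related genes were often listed in different clusters. Among its 3 entries Fbn2, the second fibrillin, was highest in cluster 7 (51.2% against 24.2% outside). Emilin1, also with 3 entries, was highest there too (66.0% against 40.9%). Fbn1 had no entry in cluster 7 and Fbn2 none in clusters 0 and 1, so the fibrillins cannot be compared where either was higher. Fbln7 was at 29.3% and 23.9% in clusters 7 and 3, and Efemp2, which encodes fibulin-4, at 98.4% and 96.0% in clusters 1 and 3. Ltbp3 was at 68.3% in cluster 1, and the integrin gene Itgb5 at 80.6%, 75.1% and 74.7% in clusters 0, 3 and 7. Loxl1 and Itgav had entries only where they were lower, with 60.4% and 23.9% in cluster 11. Bmp1 was at 38.3% in cluster 11 against 69.4% outside, and Furin (25.5%) and Glb1 (33.1%) were each listed for cluster 11 alone, with differences under 10 points. As a whole the wider list did not follow the members in each cluster. In cluster 11, 12 of its 17 listed genes were lower and 1, Vcan, was higher, beside the background of 28.7% lower. In cluster 2, however, 4 of 7 were higher and 2 lower (median difference 18.0), where 279 and 391 of all 1133 entries were. In cluster 6, 2 of 6 were higher and 3 lower, against 735 and 211 of 1416 entries. In cluster 8, 3 of 9 were higher and 6 lower, against 295 and 513 of 1126. The lower shares in clusters 6 and 8 thus stood above those of all entries, as for the members, of which 0 were higher there.

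**Figure D4:**
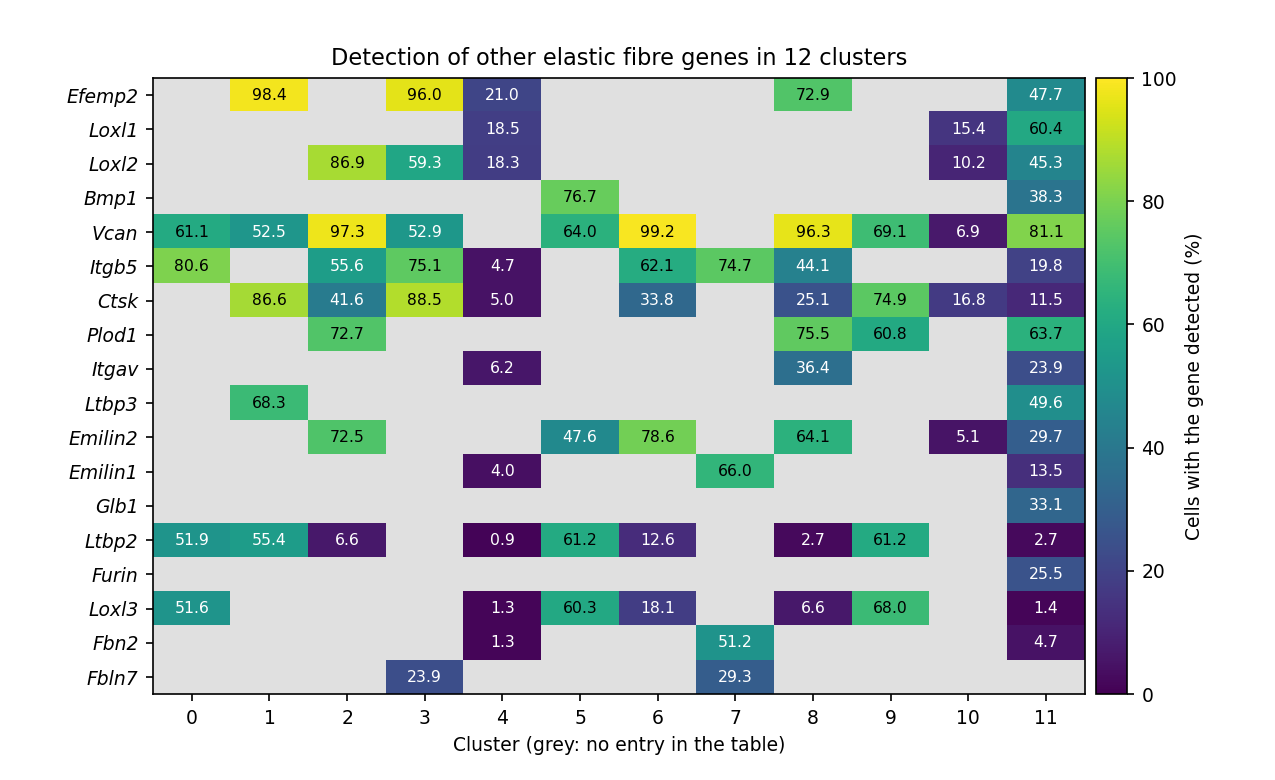
The grid gives, for 18 further elastic fibre genes (rows, ordered by detection over all cells) and clusters 0 to 11 (columns), the percent of the cluster's cells with the gene detected, grey where there is no entry. Vcan, at 96.3% to 99.2% in clusters 2, 6 and 8, runs against Ltbp2, at 2.7% to 12.6% in the same clusters.

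The fibrillar collagens (Col1a1, Col1a2, Col3a1, Col5a1, Col5a2 and Col5a3) served as a comparison from the same matrix. Of those listed, 0 of 4 were lower by 10 points in cluster 2, 0 of 4 in cluster 6 and 0 of 5 in cluster 8. The members had 4 of 5, 4 of 5 and 6 of 8 lower there, and all entries 34.5%, 14.9% and 45.6%. Col5a3, also one of the differentiating markers, was higher in clusters 2, 6 and 8, by 43.0, 48.9 and 54.8 points. Col5a1 had no entry in these clusters. In cluster 11, 3 of 5 collagens were lower against 8 of 9 members and 28.7% of all entries. Over all cells, Col1a1, Col1a2, Col3a1 and Col5a2 were detected in 92.0% to 98.6%, which narrows the difference that detection can show, and the lists were not tested against each other. The small leucine-rich proteoglycans were Dcn, Lum, Bgn, Fmod, Ogn, Omd, Prelp and Aspn, 5 of which had an entry. Of those listed, 2 of 3 were lower in cluster 2, 2 of 4 in cluster 6 and 2 of 4 in cluster 8. These were Ogn and Prelp each time, and the share over all entries was 34.5%, 14.9% and 45.6%. In cluster 11, 4 of 5 were lower against 28.7%. With so few genes listed, no likeness to the members is read.

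The contractile genes Acta2, Tagln, Myl9, Cnn1 and Tpm2 were described beside the members. All 5 were higher in clusters 0, 5 and 9, against 66.0%, 72.1% and 76.9% of all entries. Of those listed, 4 of 4 were higher in cluster 1 and 2 of 2 in cluster 7, against 58.8% and 59.7%. All 5 were lower in clusters 2, 4, 6, 8 and 11, against 34.5%, 92.8%, 14.9%, 45.6% and 28.7%. Median differences were 41.2 in cluster 0 and -53.6 in cluster 11. In cluster 3, with 3 of 5 members higher, 3 contractile genes were higher and 1 lower, against 208 and 121 of 427 entries. Over the clusters other than 4 and 10, the genes whose detection followed that of a member most closely were sought for the 5 members with at least 6 such clusters. For Mfap5 these were Mfap2 (Pearson r = 0.998 over 6 shared clusters) and Thbs1 (0.997 over 8), and for Mfap2 they were Mfap5 and Thbs1 (0.996 over 6). Fbln5 was followed by Tgfb1i1 (0.9997) and Ccn4 (0.998), Mfap4 by Tm4sf1 (0.9999) and Fez1 (0.999), and Fbln2 by Bgn (0.999) and Cd63 (0.999), each over 6 clusters. These are the best of 107 to 532 candidates over few clusters that share the same cells, and they are descriptions only.

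**Figure D5:**
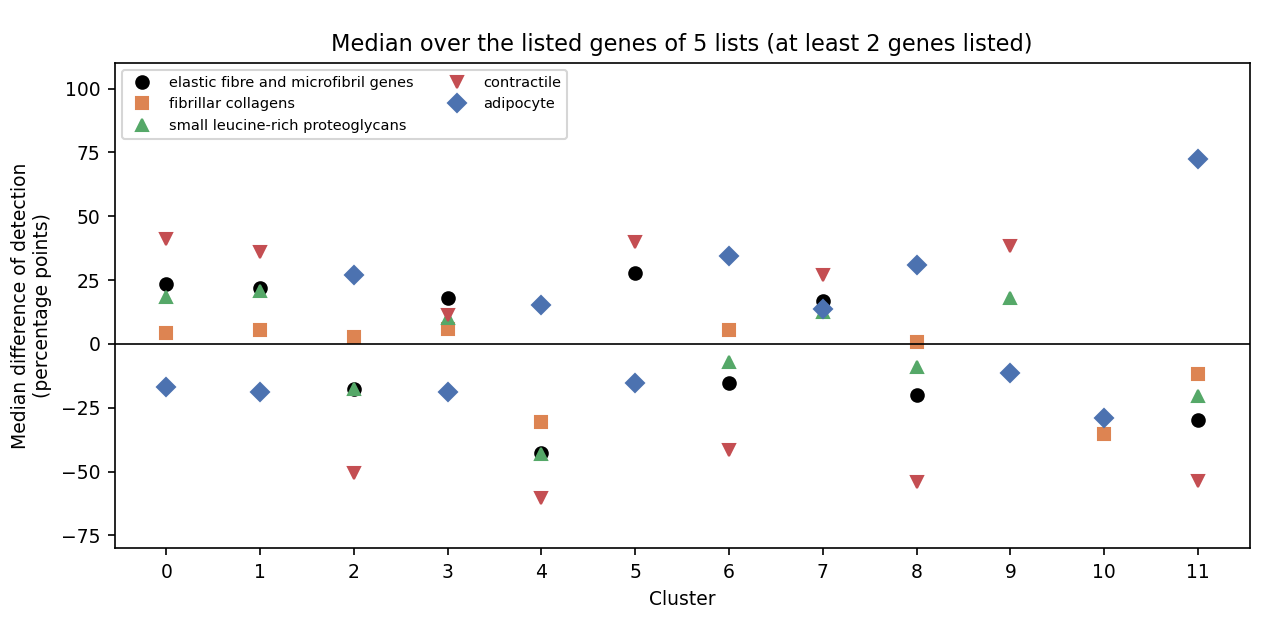
Each point is the median, over the listed genes of a list, of the detection in a cluster minus that in all other cells (y axis, percentage points) for clusters 0 to 11 (x axis), shown where at least 2 genes of the list had an entry. The elastic fibre and microfibril genes (black) lie above 0 in clusters 0, 1, 3, 5 and 7 and below it in clusters 2, 4, 6, 8 and 11, where the adipocyte genes (blue) lie above it, and in cluster 7 both lie above it, at 16.9 and 13.6.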

How the data were processed

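Single-cell RNA was captured with a 3′ droplet chemistry from 8 samples in 4 groups of 2. According to the submitters' processing notes and methods, the authors mapped reads to mm10 with Cell Ranger 6.0.0, evened read depth across captures, filtered, log-normalized and clustered the cells in Seurat after removing immune, glial and endothelial cells, and compared each cluster with the rest by MAST. No removal of doublets is described.

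The deposited table pools all samples and holds 2 values of detection for an entry, each a fraction, one for the cluster and one for the remaining cells, rounded to 0.1 percentage points. The larger one is never under 10.1%. These fractions are printed as percents. The table also holds log2 fold changes, p-values and adjusted p-values, which are the authors' own comparisons and were not used, so that direction here means detection. A shift in the amount per cell of a gene found in nearly all cells is not seen by it.

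Cluster shares were solved by least squares from the 10 genes listed in every cluster, and summed to 99.9%. The solver was tested on simulated data. They give detection over all cells and, as a remainder, the mean over clusters without an entry. Differences of at least 10 percentage points were counted. The work was done in Python 3.11.15 with pandas 2.3.3, scipy 1.17.1 and numpy 2.4.6, and plots were drawn in matplotlib 3.10.9.

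Members, lists and motifs were chosen with earlier results of these data known. Named were the members, every listed gene of the wider elastic fibre list, and per member the 2 genes with the highest Pearson r over at least 6 shared clusters. Protein sequences were not analysed here.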

Additional observations from a re-analysis of the deposited data

How the results depend on the processing

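No paired analysis was possible because all samples are pooled in 1 value, and leaving out a replicate was not possible either. Detection over all cells and in the clusters without an entry moved by less than 1 percentage point for all 10 members when the shares were solved from all 2691 genes listed in at least 2 clusters. By the difference from all other cells, 9 members kept their highest cluster and Mfap2 moved from cluster 7 to cluster 1. All 19 counts stayed within 1.5 times at a detection minimum of 25%, and leaving out clusters 4 and 10, an alternative added after the data had been seen, gave 17 higher and 22 lower entries.

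With 5 percentage points, the members higher in clusters 2, 3, 6 and 7 became 1, 5, 1 and 2, and with 2-fold odds of detection those in clusters 2, 3 and 6 became 1, 5 and 1. Those added in clusters 2, 3 and 6 are Lox and Fbln2, whose detection leaves no room for 10 points. With 20 percentage points, 3 were higher in cluster 1 and 2 were lower in clusters 2 and 6. Relative to the cluster's median entry, the members higher in clusters 0, 1, 4, 5, 9 and 10 became 2, 2, 4, 0, 0 and 1, and those lower in clusters 0, 4 and 10 became 1, 2 and 0, which follows from a median entry far from 0 in these clusters. Both kinds of member then stood in clusters 0 and 4, and at 5 percentage points or 2-fold odds in clusters 2 and 6. The lower counts of clusters 8 and 11 stayed within 1.5 times under each alternative. Depth and cell numbers are unknown, so their effect was not measured.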
